A study of Mus musculus with 12 samples.

Results

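The 10 tubulin isotype genes described here are Tuba1a, Tuba1b, Tuba1c, Tuba4a and Tuba8, which encode alpha-tubulins, and Tubb2a, Tubb2b, Tubb4b, Tubb5 and Tubb6, which encode beta-tubulins. They were picked by gene symbol from the 54532 genes of the liver expression table, and all 10 were found there. Which measured values entered the choice is not recorded, so the fold changes and adjusted p values of these genes are given as a description of the mice and support no further statement.

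The livers came from male C57BL/6J mice that started on their diets at 5 weeks of age and ate them for 26 weeks, with 3 mice in each of 4 groups. ND-fed mice received the normal chow CE-2, control mice received the high-fat diet HFD32, and HYA- and LA-treated mice received the same high-fat diet with 1% of HYA or LA. HYA, 10-hydroxy-cis-12-octadecenoic acid, arises in the gut when lactic acid bacteria hydrate linoleic acid (LA). It carries a hydroxyl group that LA lacks and has 1 double bond fewer, and both were given at the same dose for the same time. Chow and high-fat diet are different products, so a difference between ND and control is not one of fat content alone, and no group received HYA or LA on chow. RNA was from whole liver, in which fewer cells of a type and less RNA per cell cannot be told apart.

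Tubulin is a dimer of 1 alpha and 1 beta subunit, and these dimers assemble end to end into microtubules, the tracks along which a cell moves vesicles and organelles and from which it builds the mitotic spindle. Mammals have several genes for each subunit, whose proteins are nearly alike over most of their length and differ mainly in the acidic tail that carries chemical modifications and is read by motors and other binding proteins. In hepatocytes, microtubules serve the secretion of plasma proteins and lipoproteins and the traffic of membrane proteins to the canaliculus. Cells also adjust the amount of tubulin mRNA to the amount of free tubulin dimer.

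Levels are given as FPKM, the fragments counted on a gene divided by its length and by the size of the library. Recovered fragments on genes numbered 17169064 to 25220880 per mouse (median 19610557), and all mice had high albumin mRNA, the lowest group mean being 20497 FPKM. Differences were fitted with limma on log2(FPKM + 1) over the 11083 genes whose mean over all mice reached 1 FPKM, with Benjamini-Hochberg adjustment over all of them, and a gene was called at an adjusted p under 0.05. Of the 10 tubulin genes, 9 passed this filter and Tuba8 did not. Where a log2 difference is given it is on that scale, which understates the change of genes with low levels, with its standard error and n = 3 mice per group. The labels do not say that these mice were housed or killed separately, so the p values measure the spread between these samples.

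Upstream sequences are shown for Tubb2a, the tubulin gene with the highest level over all mice and a large diet difference, and for Tubb4b, the beta-tubulin gene nearest to it in level in ND-fed mice, which was called in no comparison. Each is the 250 bases before the annotated start in RefSeq on GRCm38.p6, written on the strand of the gene. Tubb2a is on the minus strand at chr13:34078009-34078258 and Tubb4b on the minus strand at chr2:25224703-25224952. Capitals mark a CCAAT box (CCAAT), a GC box (GGGCGG) or a TATA box (TATAAA), searched on both strands together with an AP-1 site (TGANTCA), which neither sequence held. None of the marked matches overlap.
Tubb2a: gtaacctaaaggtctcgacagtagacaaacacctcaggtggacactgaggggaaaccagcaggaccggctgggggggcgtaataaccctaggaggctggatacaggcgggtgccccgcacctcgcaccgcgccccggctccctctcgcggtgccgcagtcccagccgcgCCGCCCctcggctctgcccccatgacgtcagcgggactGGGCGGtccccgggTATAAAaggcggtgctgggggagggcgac
Tubb4b: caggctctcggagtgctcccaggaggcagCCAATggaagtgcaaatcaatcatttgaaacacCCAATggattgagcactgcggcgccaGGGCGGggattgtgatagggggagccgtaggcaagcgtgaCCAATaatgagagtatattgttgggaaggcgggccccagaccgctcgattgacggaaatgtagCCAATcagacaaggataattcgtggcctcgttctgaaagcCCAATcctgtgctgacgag
Tubb2a had 1 TATA box beginning 29 bases before the start and 2 GC boxes, and no CCAAT box. Tubb4b had 5 CCAAT boxes and 1 GC box, and no TATA box. Among 32851 mouse promoters of the same length, 33.8% held at least 1 CCAAT box, 32.7% a GC box, 12.4% a TATA box and 6.75% an AP-1 site. RefSeq entries matched 8 of the 10 genes, and no match was used for Tubb2b and Tubb6. The matches are letters in a window and say nothing of which factor was bound.

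Tubb2a, a widely expressed beta-tubulin, had the highest level of the 10 genes over the 12 mice. It stood at 66.3, 85.2 and 50.7 FPKM in ND-fed mice, 258, 153 and 364 in control mice, 226, 136 and 134 in HYA-treated mice and 371, 325 and 258 in LA-treated mice. All 9 mice on a high-fat diet lay above all 3 ND-fed mice, and the control and LA-treated mice overlapped. Group means were 67.4 ± 17.3 FPKM for ND, 258 ± 105 for control, 165 ± 52.7 for HYA and 318 ± 57.0 for LA (SD, n = 3 each), so that the control mean was 3.83-fold and the LA mean 4.72-fold that of ND-fed mice. The log2 difference between control and ND was 1.87 ± 0.31 (adjusted p = 0.00107, limma).

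Tubb2b, the close neighbor of Tubb2a in sequence and best known from developing neurons, was almost absent from ND-fed livers. Its levels were 0.124, 0.0823 and 0.606 FPKM in ND-fed mice, which rest on 5, 3 and 25 fragments. In control mice they were 5.90, 2.65 and 4.04 FPKM, in HYA-treated mice 5.85, 3.32 and 3.77, and in LA-treated mice 10.98, 6.36 and 8.90. Every high-fat mouse exceeded every ND-fed mouse, and every LA-treated mouse exceeded every control and HYA-treated mouse. The control mean of 4.20 ± 1.63 FPKM was 15.5-fold the ND mean of 0.271 ± 0.291 (SD, n = 3), and 40.7-fold when ND 3 was left out, so the size of this fold depends on that mouse. On the log2 scale control exceeded ND by 2.01 ± 0.27 (adjusted p = 0.000251, limma), and by 3.74 with a pseudocount of 0.1 and 4.28 with voom on recovered fragments.

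Both genes lie on the minus strand of chromosome 13 (GRCm38), Tubb2a at 34074274 to 34078007 and Tubb2b at 34126748 to 34130466, with a gap of 48.74 kb. Of the 1461 windows of 150 bases in the longest coding transcript of Tubb2a, 27.9% were also present in Tubb2b or the pseudogene Tubb2a-ps2, and 20.1% of the Tubb2b windows were shared likewise. The handling of reads with several matches is not given in the sources used here, and how much of the Tubb2b signal was misplaced Tubb2a reads was not tested. As a percent of the Tubb2a level in the same mouse, Tubb2b was at 0.187, 0.0966 and 1.20 in ND-fed mice, 2.28, 1.73 and 1.11 in control mice, 2.59, 2.44 and 2.82 in HYA-treated mice and 2.96, 1.96 and 3.45 in LA-treated mice. This percent was thus not constant, and the ND-fed mouse ND 3 lay inside the control range. The summed level of both genes was 67.7 ± 17.0 FPKM in ND, 263 ± 106 in control, 170 ± 54.0 in HYA and 327 ± 57.8 in LA (SD, n = 3). Tested genes on either side were Bphl and Ripk1 below Tubb2a and Psmg4 and Slc22a23 above Tubb2b. Of these only Bphl, 0.2 kb from Tubb2a, was called in control against ND, and it was lower there (log2 difference -0.35 ± 0.10, adjusted p = 0.0161, limma).

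Tubb6, a beta-tubulin gene known for its rise in regenerating muscle, had values of 3.56, 4.37 and 3.39 FPKM in ND-fed mice, 10.19, 6.85 and 12.91 in control mice, 7.90, 4.27 and 6.29 in HYA-treated mice and 13.83, 10.49 and 9.17 in LA-treated mice. The HYA range overlapped those of ND and control, and all LA-treated mice lay above all HYA-treated mice. Control exceeded ND by 1.17 ± 0.23 on the log2 scale (adjusted p = 0.00291, limma), a 2.64-fold ratio of means. The windows of its transcript were shared with no other gene.

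Tubb4b, the beta-tubulin of cilia and of many dividing and non-dividing cells, and Tubb5, the common beta-tubulin of proliferating tissue, were not called in control against ND, and the ranges of those 2 groups overlapped for both. Tubb4b stood at 61.7 to 78.0 FPKM in ND, 58.0 to 81.0 in control, 59.2 to 83.9 in HYA and 68.4 to 83.6 in LA, and Tubb5 at 21.5 to 22.8, 20.2 to 27.3, 17.2 to 22.7 and 22.7 to 25.5 in the same order. Tubb4b ranges overlapped between all groups, while the Tubb5 ranges of HYA and LA lay just apart. Neither gene was called in any of the 6 comparisons. In the Tubb4b transcript, 16.8% of windows were shared with the pseudogene Tubb4b-ps1, which itself was at 1.16 to 1.45 FPKM in the group means.

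**Figure D1:**
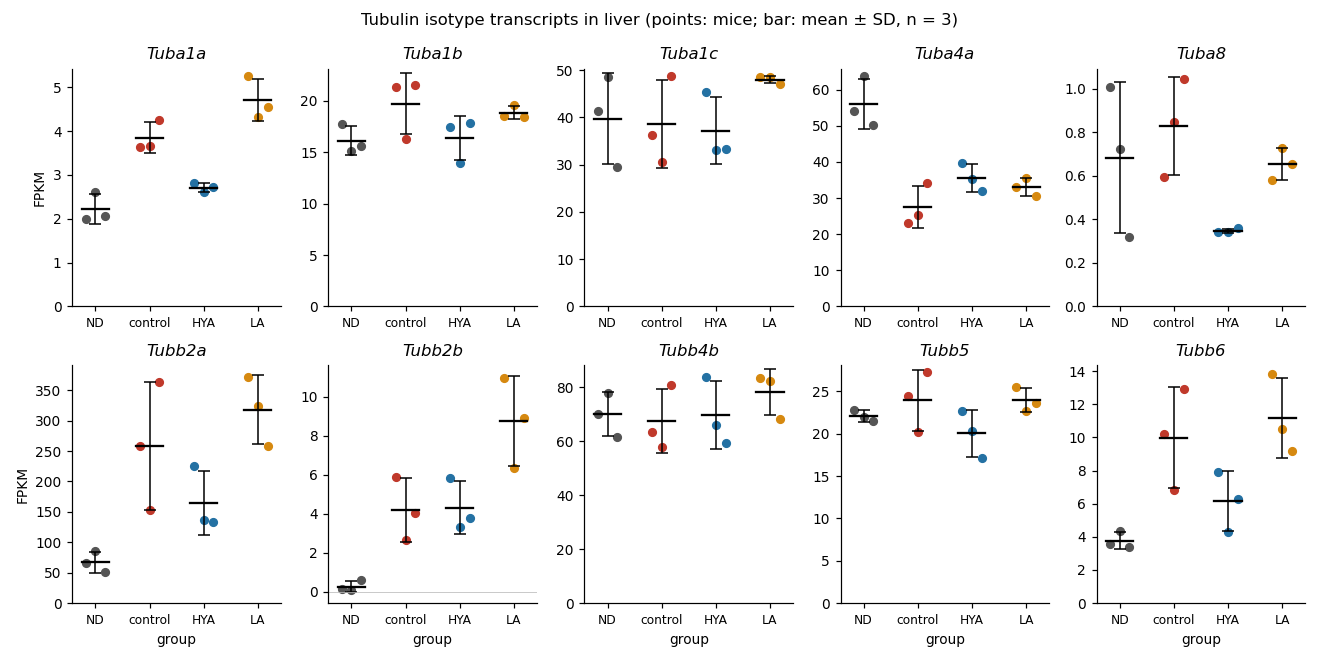
FPKM (vertical axis, from 0 and with its own scale for each gene) of the 10 tubulin genes in each of the 12 mice by group, with the mean and SD of 3 mice as black lines. The 9 mice on a high-fat diet lie above the 3 ND-fed mice for Tubb2a (133.6 or more against 85.2 or less) and Tubb2b, and below them for Tuba4a.

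Tuba4a, an alpha-tubulin whose gene does not encode the final tyrosine that most alpha-tubulins carry, had its highest levels in ND-fed mice. Its levels were 54.2, 63.8 and 50.3 FPKM in ND-fed mice, 23.1, 25.3 and 34.1 in control mice, 39.6, 35.3 and 31.9 in HYA-treated mice and 33.1, 35.5 and 30.6 in LA-treated mice. All ND-fed mice lay above all others, and the 3 high-fat groups overlapped one another. Control was lower than ND by a log2 difference of -1.01 ± 0.14 (adjusted p = 0.000301, limma), with an ND mean 2.04-fold the control mean. The gene is on the minus strand of chromosome 1 at 75214228 to 75219865 (GRCm38) and shares 1379 bases with Stk16 on the other strand. The library kit named in the labels does not mark strand, so reads from the overlap cannot be assigned by strand. Stk16 was at 14.9 to 16.8 FPKM in the group means, and its log2 difference between control and ND was -0.16 ± 0.06 (adjusted p = 0.0588, limma), a smaller difference than that of Tuba4a.

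Tuba1a, an alpha-tubulin best known from developing neurons, had low levels that were highest in LA-treated mice. It stood at 1.99, 2.62 and 2.07 FPKM in ND-fed mice, 3.64, 3.66 and 4.26 in control mice, 2.80, 2.60 and 2.71 in HYA-treated mice and 5.26, 4.32 and 4.55 in LA-treated mice. HYA-treated mice lay below all control and LA-treated mice and overlapped the ND-fed mice, and each LA-treated mouse lay above each control mouse. The control mean of 3.85 ± 0.351 FPKM was 1.73-fold the ND mean of 2.23 ± 0.343 (SD, n = 3), with a log2 difference of 0.59 ± 0.09 (adjusted p = 0.000558, limma).

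Tuba1b and Tuba1c, the common alpha-tubulins of most tissues, varied less. Tuba1b was at 15.1 to 17.8 FPKM in ND, 16.3 to 21.5 in control, 13.9 to 17.8 in HYA and 18.4 to 19.6 in LA. Its log2 difference between control and ND was 0.27 ± 0.12 and did not pass the threshold (adjusted p = 0.0967, limma), although it did when values were rescaled so that every library had the same sum (TPM, 0.51, adjusted p = 0.0122) or when control 2 was left out (0.39, adjusted p = 0.0160). Tuba1c was at 29.5 to 48.4 FPKM in ND, 30.6 to 48.8 in control, 33.0 to 45.4 in HYA and 47.1 to 48.5 in LA, and was called in no comparison.

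Tuba1a, Tuba1b and Tuba1c form a cluster on chromosome 15, between 98931425 and 99038110 (GRCm38). Of their 150-base windows, 54.7%, 57.9% and 46.7% were shared with one another, with the overlapping gene model Gm49450 or with pseudogenes, so the split among the 3 genes is uncertain. Their summed level was 58.1 ± 9.85 FPKM in ND, 62.2 ± 12.0 in control, 56.3 ± 8.32 in HYA and 71.6 ± 1.30 in LA (SD, n = 3). Tuba1a supplied the smallest share of this sum.

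Tuba8, an alpha-tubulin of heart, muscle and testis, was at 1.01, 0.723 and 0.320 FPKM in ND-fed mice, 0.596, 0.848 and 1.05 in control mice, 0.342, 0.341 and 0.358 in HYA-treated mice and 0.580, 0.725 and 0.654 in LA-treated mice, on 13 to 49 fragments. HYA-treated mice lay below control and LA-treated mice and inside the ND range. It entered a fit only when no filter on low values was applied, and there HYA was below control by a log2 difference of -0.43 ± 0.14 with an adjusted p of 0.212 (limma).

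In control against ND, 5 of the 9 tested tubulin genes were called, 4 higher (Tuba1a, Tubb2a, Tubb2b, Tubb6) and 1 lower (Tuba4a). At the same threshold 35.3% of all tested genes were called in this comparison, 16.2% higher and 19.1% lower. The ranges of the 2 groups lay apart for the same 5 tubulin genes, against 45.6% of all genes. With the added requirement of an absolute log2 difference over 1, Tubb2a, Tubb2b, Tubb6 and Tuba4a remained, beside 3.88% of all genes. The median log2 difference was 0.27 over the 9 tubulin genes and -0.04 over all genes. Each of the 5 called genes was also called under all 19 alternatives tried. With TPM the median over all genes moved from -0.04 to 0.17 and the share of called genes that were higher from 45.9% to 83.8%. For HYA against control the median moved from 0.02 to -0.09 and that share from 56.1% to 19.5%. TPM divides by the FPKM sum of each mouse, and these sums differed between groups. They were 407652 to 429286 in ND, 342146 to 368132 in control, 380803 to 393109 in HYA and 352290 to 361523 in LA.

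**Figure D2:**
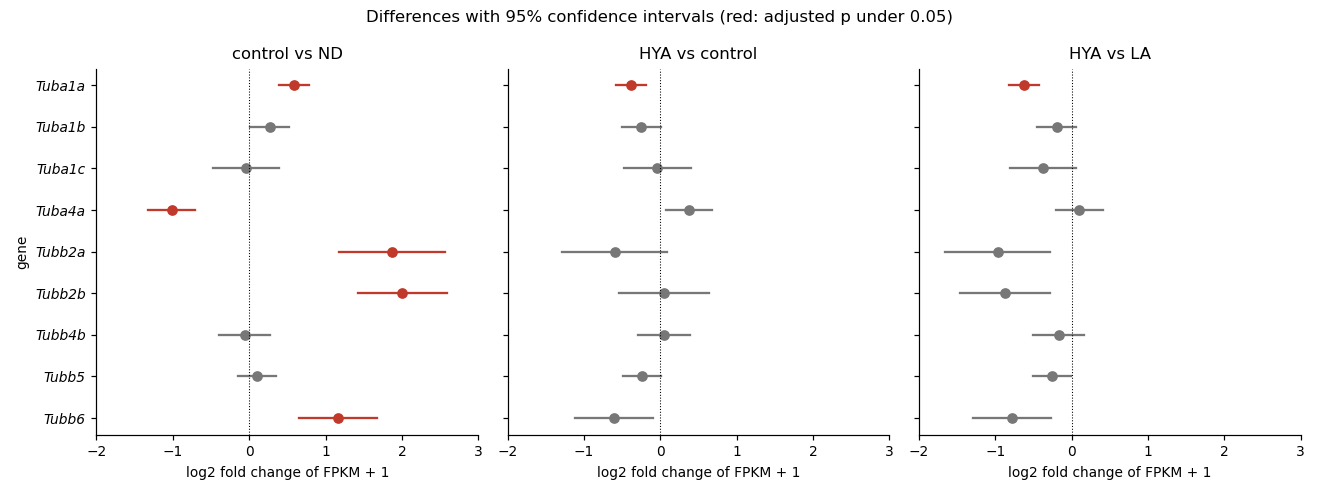
Log2 difference of FPKM + 1 (horizontal axis) with its 95% confidence interval for the 9 tested tubulin genes in 3 comparisons, red where the adjusted p was under 0.05. Between control and ND, 4 genes lie above and Tuba4a below 0, whereas HYA against control and HYA against LA each have 1 red gene, Tuba1a.

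The summed level of the beta-tubulin genes differed between diets more than that of the alpha-tubulin genes. Beta-tubulin FPKM summed to 164 ± 25.9 in ND, 364 ± 124 in control, 265 ± 70.2 in HYA and 440 ± 68.8 in LA (SD, n = 3). The corresponding alpha-tubulin sums were 115 ± 16.5, 90.5 ± 17.1, 92.3 ± 11.5 and 105 ± 3.73 FPKM. The ratio of alpha to beta was therefore 0.713, 0.689 and 0.709 in the ND-fed mice, 0.235, 0.319 and 0.224 in control mice, 0.305, 0.370 and 0.391 in HYA-treated mice and 0.210, 0.243 and 0.275 in LA-treated mice. The ND-fed mice lay far above and close together, the control and LA-treated mice overlapped, and HYA-treated mice overlapped control mice but not LA-treated mice. Mean ratios were 0.704 ± 0.013, 0.259 ± 0.052, 0.355 ± 0.045 and 0.243 ± 0.033 (SD, n = 3) and moved by less than 1 SD when all other alpha- and beta-tubulin entries of the table were added. This ratio is one of mRNA levels per gene length and says nothing of protein amounts.

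A single gene accounted for most of the beta-tubulin difference. Tubb2a made up 40.8% of the beta-tubulin sum in ND-fed mice and 69.8%, 61.7% and 72.1% in control, HYA-treated and LA-treated mice, while Tubb4b made up 43.0%, 19.4%, 26.6% and 17.9% in the same order. Without Tubb2a the beta-tubulin sum was 96.1 ± 8.66 FPKM in ND, 106 ± 18.8 in control, 100.3 ± 17.8 in HYA and 122 ± 11.9 in LA (SD, n = 3). Among the alpha-tubulin genes, Tuba4a supplied 49.0% of the sum in ND-fed mice and 30.4%, 38.7% and 31.4% in the others, and Tuba1c 34.3%, 42.4%, 40.1% and 45.6%. Tuba4a, Tuba1c, Tubb4b and Tubb2a thus had the highest mean levels in every group. The share of Tubb4b was lower on the high-fat diets although its mean level was similar. That level was 70.0 FPKM in ND, 67.5 in control, 69.7 in HYA and 78.2 in LA.

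**Figure D3:**
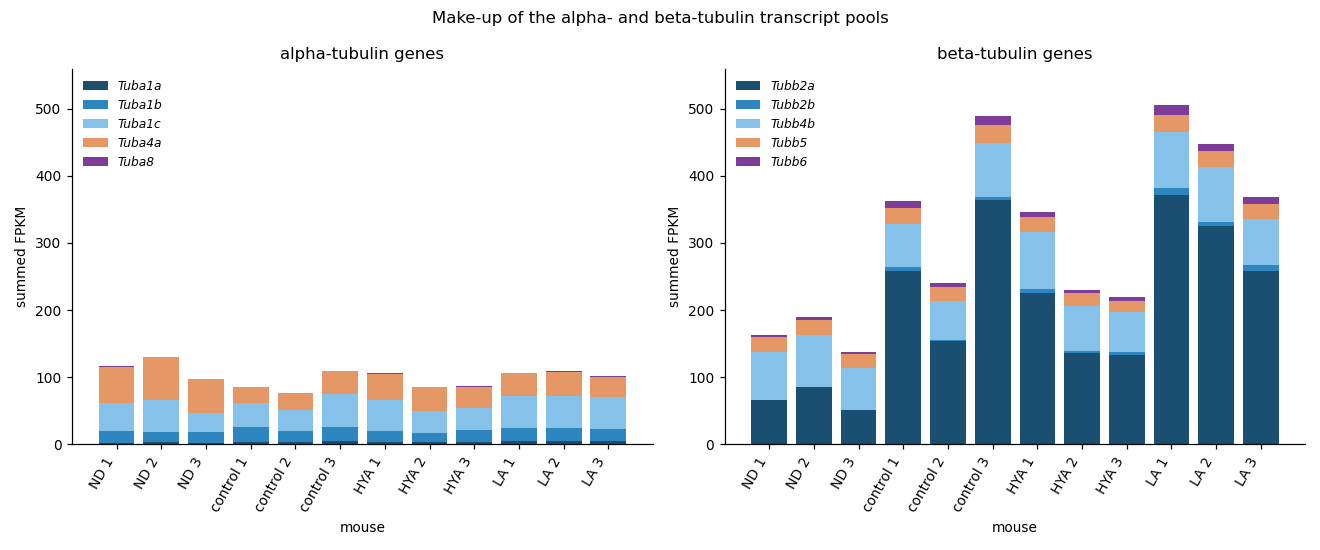
Summed FPKM (vertical axis from 0) of the 5 alpha-tubulin genes (left) and the 5 beta-tubulin genes (right) in each mouse, stacked by gene. The beta-tubulin stacks of high-fat mice are taller, 220.1 to 505 against 138 to 190 FPKM in ND-fed mice, through the Tubb2a segment, and the alpha-tubulin stacks stay between 76.8 and 131 FPKM.

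To see whether a supplement altered these levels, HYA- and LA-treated mice were compared with control mice. In HYA against control, 1 of 9 tubulin genes was called, Tuba1a, which was lower (log2 difference -0.39 ± 0.09, adjusted p = 0.0487, limma), while 2.80% of all tested genes were called, 1.57% higher and 1.23% lower. This call sits at the threshold and was lost under 15 of 19 alternatives, with adjusted p values up to 0.176. Tubb2a (-0.60 ± 0.31, adjusted p = 0.339) and Tubb6 (-0.61 ± 0.23, adjusted p = 0.186) had negative and Tuba4a (0.37 ± 0.14, adjusted p = 0.177) positive log2 differences that did not pass (limma). Tubb2b had the same mean in both groups within its spread, 4.20 ± 1.63 FPKM in control and 4.31 ± 1.35 in HYA (SD, n = 3). Ranges of the 2 groups lay apart for 1 tubulin gene, and for 21.6% of all genes.

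In LA against control no tubulin gene was called, nor was any other gene (0% of all tested, limma), with 2 tubulin genes and 294 genes in all (2.65%) at an unadjusted p under 0.05. The ranges lay apart for Tuba1a and Tubb2b, both higher in LA-treated mice, and for 7.55% of all genes. Log2 differences were 0.23 ± 0.09 for Tuba1a, 0.93 ± 0.27 for Tubb2b, 0.37 ± 0.31 for Tubb2a, 0.27 ± 0.14 for Tuba4a and 0.17 ± 0.23 for Tubb6, each with an adjusted p of 0.999 (limma). The value of Tubb6 had the opposite sign, -0.06, when control 2 was left out.

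HYA and LA were given at the same dose for the same time, and this is the only pair of compounds. Between them 1 of 9 tubulin genes was called, Tuba1a, lower under HYA with a log2 difference of -0.62 (95% interval -0.82 to -0.42, adjusted p = 0.0317, limma), against 0.487% of all tested genes (0.235% higher and 0.253% lower). The call was lost without each single HYA- or LA-treated mouse (adjusted p from 0.0564 without HYA 1 to 0.166 without LA 1) and without the filter on low values (0.0812). The ranges of HYA- and LA-treated mice lay apart for 7 of the 9 genes, all lower under HYA, and for 25.2% of all genes.

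For the other genes the HYA minus LA difference did not pass the threshold. The 95% intervals (limma, log2) were -1.66 to -0.28 for Tubb2a around -0.97 (adjusted p = 0.147), -1.46 to -0.29 for Tubb2b around -0.88 (adjusted p = 0.127) and -1.29 to -0.27 for Tubb6 around -0.78 (adjusted p = 0.121). Those of Tuba1b (-0.45 to 0.06), Tuba1c (-0.81 to 0.06), Tubb4b (-0.51 to 0.17) and Tuba4a (-0.21 to 0.41) included 0, and that of Tubb5 (-0.50 to -0.0047) ended just below it. The intervals of Tubb2a, Tubb2b and Tubb6 lay wholly below 0 although their adjusted p values missed the threshold, and the test does not show that the compounds act alike on any of the genes. The value for Tuba4a, 0.10, had the opposite sign with TPM (-0.02).

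Against ND-fed mice, both supplemented groups are listed beside the control values, since all 3 comparisons share the ND samples. In HYA against ND, 3 of 9 tubulin genes were called, 2 higher and 1 lower, beside 16.6% of all genes (8.72% higher and 7.85% lower). They were Tubb2b (log2 difference 2.06 ± 0.27, adjusted p = 0.000552), Tubb2a (1.27 ± 0.31, adjusted p = 0.0190) and Tuba4a (-0.64 ± 0.14, adjusted p = 0.0102) by limma, while Tuba1a (0.21 ± 0.09, adjusted p = 0.140) and Tubb6 (0.56 ± 0.23, adjusted p = 0.126) did not pass. The call of Tubb2a was lost without ND 3 (adjusted p = 0.0669) or HYA 1 (adjusted p = 0.0718, limma), and without the filter on low values (adjusted p = 0.0533). The ranges of HYA- and ND-fed mice lay apart for the 3 called genes, and for 35.9% of all genes.

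In LA against ND, 5 of 9 tubulin genes were called, 4 higher and 1 lower, beside 31.1% of all genes (14.4% higher and 16.6% lower). Tubb2b (2.93 ± 0.27, adjusted p = 2.87e-05), Tubb2a (2.24 ± 0.31, adjusted p = 0.00042), Tubb6 (1.34 ± 0.23, adjusted p = 0.00155) and Tuba1a (0.83 ± 0.09, adjusted p = 8.56e-05) were higher and Tuba4a (-0.74 ± 0.14, adjusted p = 0.00242) was lower on the log2 scale (limma). Ranges lay apart for these 5 genes and Tuba1b, and for 47.0% of all genes.

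Across the 12 mice, Tubb6 ran with Tubb2a, with a Pearson r of 0.965 between their log2 levels and 0.889 between their deviations from the group means. Tuba4a ran against Tubb2a across all mice (r = -0.658) but with it within groups, where the r of deviations was 0.754. In each group but LA the mouse with the highest Tubb2a also had the highest Tuba4a, as in ND 2 (85.2 and 63.8 FPKM), control 3 (364 and 34.1) and HYA 1 (226 and 39.6). Tubb4b and Tuba1c, which were called in no comparison, also moved with Tubb2a within groups (r of deviations 0.936 and 0.913). Tubb2b did so less (0.357). These coefficients are over 12 mice of 4 groups that share the authors' scaling, and are given as a description.

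**Figure D4:**
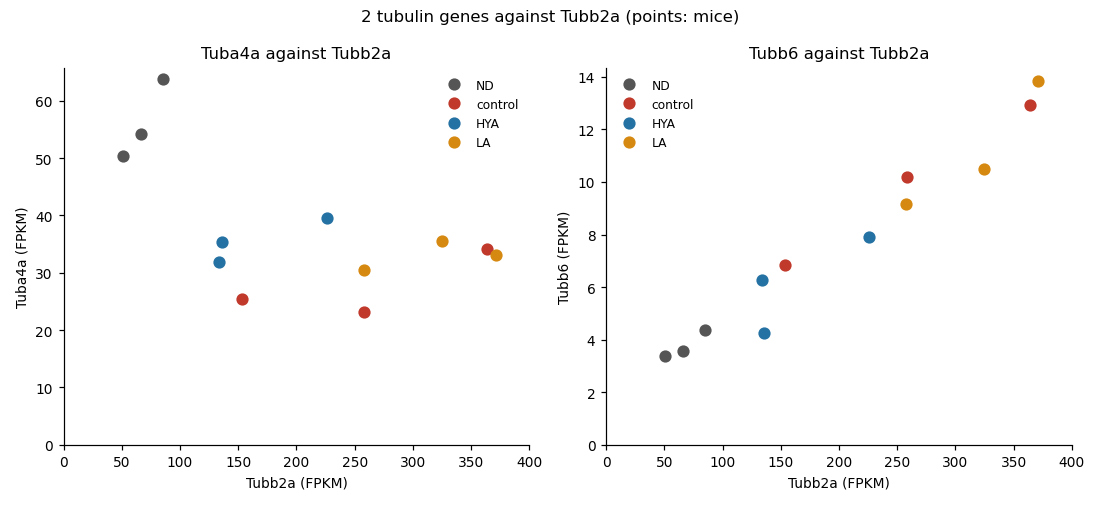
FPKM of Tuba4a (left) and Tubb6 (right) against FPKM of Tubb2a in the 12 mice, coloured by group. Tubb6 follows Tubb2a over all mice, while the ND-fed mice form a separate cluster with Tuba4a above 50 FPKM and Tubb2a below 90 FPKM.

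The mean of the centred log2 levels of the 9 tested tubulin genes was compared with every other tested gene. Those most alike over the 12 mice were Zc3h12d, which encodes a regulator of mRNA decay (r = 0.971), Ggct, an enzyme of glutathione breakdown (0.962), S100a10, the partner of annexin A2 (0.960), Arhgef5 (0.953) and Samd4 (0.952). For deviations from the group means they were Actb, the cytoplasmic beta-actin (r = 0.983), Slc16a6 (0.962), the septin gene Sept11 (0.956), Nfkbib, an inhibitor of NF-kappaB (0.955), and Ston1 (0.948). Actb itself was not called between control and ND (log2 difference 0.14 ± 0.10, adjusted p = 0.308, limma). The symbol of Sept11 stands in the deposited table as a calendar date and was restored through its gene identifier. Zc3h12d (group means of 1.13 to 2.52 FPKM), Ggct (0.840 to 1.67) and Samd4 (0.798 to 1.70) were near the filter of 1 FPKM. All these genes were picked for the highest r among the tested genes, and r over the 12 mice includes the differences between groups. They are given as a description.

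The other tubulin genes contributed little. Tubg1, the gamma-tubulin that nucleates microtubules, was at 14.6 ± 0.835 FPKM in ND and 12.4 ± 0.193 in control (SD, n = 3) and was lower in control by a log2 difference of -0.21 ± 0.06 (adjusted p = 0.0227, limma), a call lost with TPM, where the sign was reversed (0.01), in the fit of those groups alone (adjusted p = 0.0519) and without ND 1 (0.0796), control 1 (0.0614) or control 2 (0.0579). Tubd1, the delta-tubulin of centrioles, had group means of 1.35 to 2.07 FPKM and was not called. Tubb1, Tubb3, Tubb4a, Tubg2 and Tube1 had group means of 0 to 0.239 FPKM, and Tuba3a, Tuba3b and Tubal3 were listed at 0 in every mouse.

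The counts of the gene lists for control against ND stand beside 16.2% of all tested genes called higher and 19.1% called lower. Among 23 genes for the chaperonin, prefoldin and tubulin cofactors, none was higher and 5 were lower in control than in ND (median log2 difference -0.05). With TPM, however, 6 were higher and none lower. The prefoldin subunits Pfdn6 (-0.37 ± 0.11, adjusted p = 0.0287) and Pfdn2 (-0.31 ± 0.08, adjusted p = 0.00943, limma) had the greatest falls. The Pfdn6 call was lost under 7 of 19 alternatives (adjusted p up to 0.264, limma) and the Pfdn2 call under 1. In the gamma-tubulin complex 1 of 8 was higher, Tubgcp2 (0.34 ± 0.08, adjusted p = 0.00538, limma). Of 10 modifying enzymes 1 was higher, the tubulin tyrosine ligase gene Ttl (0.45 ± 0.09, adjusted p = 0.00343, limma).

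Among 19 microtubule-associated proteins 7 were higher and 1 lower in control than in ND (median 0.15), with Clip2, a plus-end linker (0.65 ± 0.16, adjusted p = 0.0104), and Mapt, which encodes tau (0.61 ± 0.11, adjusted p = 0.00217), in front and Mtus1 lower (-0.32 ± 0.05, adjusted p = 0.00061, limma). Of 4 destabilisers 1 was higher and 2 lower. Stmn1, which encodes the dimer-binding protein stathmin, was higher (0.82 ± 0.11, adjusted p = 0.000228, limma), and the severing enzymes Katna1 (-0.33 ± 0.06, adjusted p = 0.00204) and Spast (-0.23 ± 0.06, adjusted p = 0.0132) were lower, the last 2 and Mtus1 not so with TPM, which gave 11 higher and none lower among the microtubule-associated proteins. Of 23 motor genes 4 were higher and 1 lower (median 0.08), among them Dynlt1b (0.55 ± 0.11) and Dctn1 (0.24 ± 0.06) higher and the kinesin gene Kif13b (-0.54 ± 0.07) lower, and with TPM 18 were higher and 1 lower.

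Of 26 actins and actin-binding proteins 16 were higher and 1 lower in control than in ND (median 0.47), with Capg (1.31 ± 0.17) and Tmsb10 (1.13 ± 0.16) higher and Tpm2 (-0.57 ± 0.12) lower. Of 8 intermediate filament genes 5 were higher and none lower (median 0.50), with Krt23 (2.08 ± 0.31) and Vim (1.11 ± 0.12) in front. With TPM 23 actin-related genes were higher and 1 lower, and 6 intermediate filament genes were higher. In HYA against control, where 1.57% of all tested genes were higher and 1.23% lower, the same lists had 4 lower actin-related genes of 26, led by Tmsb10 (-0.70 ± 0.16, adjusted p = 0.0451) and Tpm1 (-0.56 ± 0.10, adjusted p = 0.0255), and 3 lower intermediate filament genes of 8, with Krt8 (-0.57 ± 0.12, adjusted p = 0.0412) and Vim (-0.54 ± 0.12, adjusted p = 0.0436, limma). These counts ranged from 0 to 9 and from 0 to 4 over the alternatives.

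Stmn1 was the only destabiliser gene called under HYA against control (-0.75 ± 0.11, adjusted p = 0.0166, limma) and kept its call in 16 of 19 alternatives. Mtus1 was higher (0.21 ± 0.05, adjusted p = 0.0498, limma) and lost its call in 17 of them. No gene of the gamma-tubulin complex, folding, modifying or motor lists was called in that comparison.

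**Figure D5:**
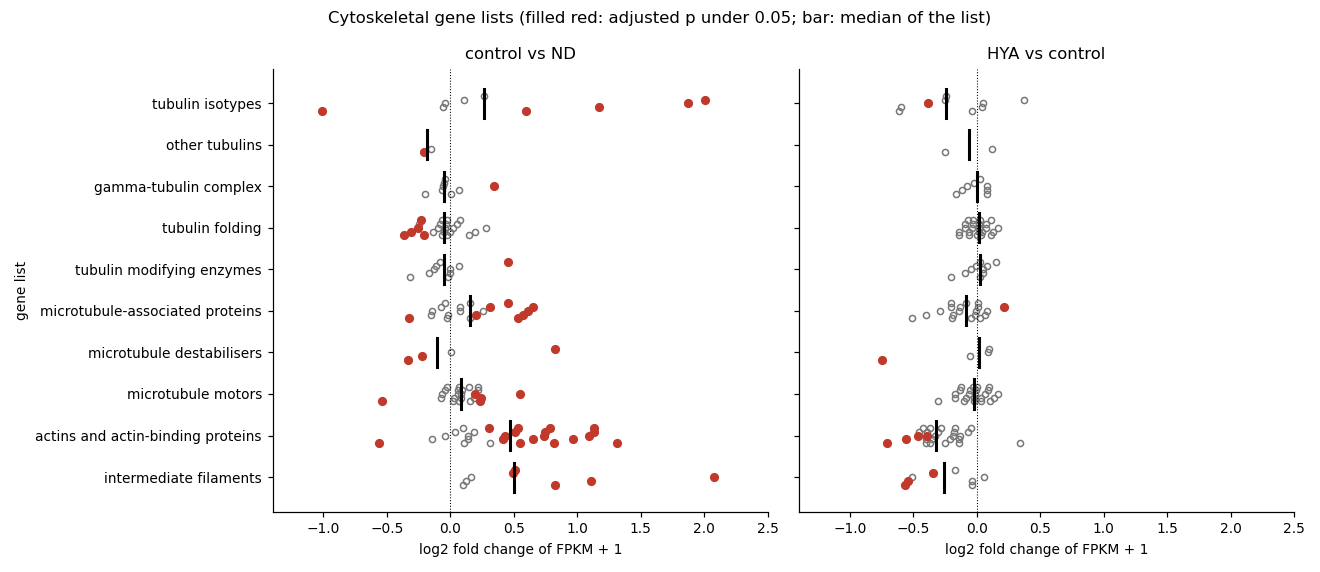
Log2 difference of FPKM + 1 (horizontal axis) of each tested gene in 10 lists, the tubulin isotypes included, for control against ND (left) and HYA against control (right), with called genes in red and the list median as a black bar. The actin list has 16 red points above 0 on the left, and the folding list has 5 below 0.

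Markers of several liver cell types also differed between control and ND, where 16.2% of all tested genes were higher and 19.1% lower. Over 11 hepatocyte markers, 10 were lower in control than in ND, with summed levels of 46595 to 48536 FPKM in ND, 30244 to 34861 in control, 39783 to 41483 in HYA and 33599 to 34393 in LA. Over 11 stellate cell and myofibroblast markers 8 were higher, and sums were 46.1 to 60.3, 104 to 133, 81.8 to 95.8 and 112 to 136 FPKM in the same order. Of 4 tested bile duct markers 2 were higher and of 10 macrophage markers 5 were higher and 1 lower, with sums over all listed genes of 26.0 to 36.5, 84.9 to 179, 44.9 to 58.4 and 87.5 to 143 FPKM for bile duct and 208 to 318, 312 to 329, 225 to 310 and 311 to 329 for macrophages. Of 8 endothelial markers 3 were higher, with sums of 63.4 to 76.9, 87.7 to 88.4, 82.6 to 90.9 and 86.3 to 90.8 FPKM.

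None of the 12 markers of dividing cells passed the filter, and their sums were 1.90 to 2.61 FPKM in ND, 8.38 to 10.01 in control, 3.29 to 4.51 in HYA and 7.34 to 8.58 in LA. The keratin gene Krt7 of bile ducts was at 0.107 to 0.190 FPKM in the group means. Lymphocyte markers (0 of 9 tested) summed to 2.54 to 5.52 FPKM over all mice. Neutrophil markers (2 of 6 tested, none called) summed to 2.28 to 8.78 FPKM, with Ly6g listed at 0 in the 9 mice of ND, control and HYA. In HYA against control (1.57% of all tested genes higher and 1.23% lower), 1 hepatocyte marker was higher, 3 stellate cell, 2 macrophage and 2 bile duct markers were lower, and no endothelial marker was called. Pancreatic acinar markers summed to 3.91 to 11.3 FPKM over all mice with Ctrb1, Cpa1, Pnlip and Amy2b at 0 throughout. Nearly all of this sum was Cela1 (mean 9.51 FPKM in ND and 4.26 in control), with Prss2 at 0.115 or less. Adipocyte markers summed to 4.80 to 14.5 FPKM, nearly all from Fabp4 (mean 1.63 in ND, 5.77 in control) and Cfd (6.54 and 1.63). Adipoq, Plin1 and Lep were at 0.182 FPKM or less. Platelet and erythroid markers summed to 248 to 523 FPKM. The part of these cell types in the tubulin levels was not tested.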

How the data were processed

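Liver RNA was measured by RNA-seq in 12 mice, 3 per group, grouped by the labels. Per the file headers, values are FPKM per gene as deposited by the authors; the methods name TPM, but the columns sum to 342146 to 429286. The submitters' processing notes name fastp, HISAT2 2.0.5, featureCounts 1.5.0-p3 and GRCm38. The settings for strand and for reads with several matches are not given in the sources used here. FPKM times gene length moved in whole steps, within 0.01%, in every library, which gave the fragment totals.

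Here limma 3.58.1 (R 4.3.3) was fitted to log2(FPKM + 1) of all 12 mice together, with an intensity trend, for genes with a mean over all mice of 1 FPKM or more. All p values are two-sided with Benjamini-Hochberg adjustment over 11083 genes. As the deposited values are not counts, no count model was the main test, and voom on recovered fragments was an alternative. On simulated data for control against ND with 11083 genes, 200 of them changed, 90% of 2-fold and 98% of 4-fold changes were recovered and 7.39% of calls were false. In the simulation genes varied independently of one another, and the 200 changed in control alone, each by 2-fold or 4-fold. In the data 3910 genes were called between these groups, so the simulated rates do not carry over to the data. Mice of a group differed by far more than sampling noise (chi-square per degree of freedom of 9.71 or more), so none was a duplicate. Sequence sharing was counted in windows of 150 bases on GENCODE M21 transcripts. Gene coordinates were identical to it for 98.33% of 54409 shared genes.

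The genes and lists were chosen with earlier results of these data known. Named list genes were the called ones with the 2 greatest differences in each direction, in control against ND and in HYA against control, and the 5 non-tubulin genes most alike were named by Pearson r, with clone names skipped. Alternatives were the pseudocount (0.1), no filter, TPM, median-ratio scaling, fits of the groups compared, voom, a replicate block and leaving out each mouse. List counts under them were added after seeing the data.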

Additional observations from a re-analysis of the deposited data

Results flagged for a closer look

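Tuba1a differed between HYA- and LA-treated mice when these were set against each other directly. The log2 difference from control was -0.39 under HYA (adjusted p = 0.0487, limma), a call lost under 15 of 19 alternatives. Under LA it was 0.23 and did not pass (adjusted p = 0.999, limma). The difference between the compounds was -0.62 (adjusted p = 0.0317, limma, n = 3 mice each). All 3 HYA-treated mice lay below all 3 LA-treated mice. The call between the compounds was lost under 7 of 19 alternatives, among them the omission of any 1 HYA- or LA-treated mouse. Of the Tuba1a sequence windows, 54.7% were shared with other genes, and the part of misplaced reads in the difference was not tested.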

How the results depend on the processing

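In control against ND the same 5 tubulin genes were called under all 19 alternatives, and Tuba1b joined them with TPM and without control 2. For HYA against control the 310 genes called became 105 without the filter, 497 with TPM and 0 in the fit of those groups alone (1723 at an unadjusted p under 0.05, limma). Leaving out 1 mouse gave 0 (without HYA 2, 1473 unadjusted) to 653 (without control 2), with 29 without control 1. The 1 tubulin gene called there became 0 with the pseudocount of 0.1, without the filter, in the fit of 2 groups, with voom and with the replicate block, and 0 to 1 when 1 mouse was left out.

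For LA against control 1 gene was called without the filter. For HYA against LA the 54 genes became 0 without the filter, 165 with TPM, 94 in the fit of 2 groups, 166 with voom and 258 with the replicate block, and 0 (without HYA 2, LA 1 or LA 2) to 259 (without control 2) on leaving out 1 mouse. The tubulin count of 1 became 0 without the filter, 2 with the replicate block, which added Tubb2b (adjusted p = 0.0460, limma), and 0 to 1 on leaving out 1 mouse. For HYA against ND leaving out 1 mouse gave 1193 (without ND 2) to 1914 genes.

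Signs turned for Tubb6 in LA against control (-0.055 without control 2, 0.358 without control 3), Tuba4a in HYA against LA (-0.017 with TPM) and Tubg1 in control against ND (0.011 with TPM), whose call was lost under 5 of 19 alternatives in all. The share of called genes that were higher moved with TPM from 48.1% to 18.8% in HYA against LA, from 52.6% to 79.8% in HYA against ND and from 46.4% to 85.4% in LA against ND. TPM divides by the FPKM sum of a mouse, which was higher in every ND-fed mouse than in every other mouse. Why these sums differed, and other causes, were not tested. No pairing by replicate number was seen. Of same-number pairs 3 of 18 correlated above 0.1, and of the other pairs 7 of 36. Among the 12 mice, 2 correlated best with their own number. This check, with 3 mice in each group, cannot decide whether the numbers pair the mice. With 3 mice per group and 3 to 25 fragments of Tubb2b in ND-fed mice, its fold is imprecise.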
